A study of Homo sapiens with 12 samples.

Results

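The genes described here are 10 components, regulators and targets of the NF-kappaB pathway, out of 1939 distinct gene entries in the tables analysed. They were chosen by their group FPKM values and the authors' significance calls in the comparisons described below, with those results known, so their changes are given as a description and no test of them was made. All 10 were found in the table of the wild-type (WT) comparison, and 5 of them, RELB, NFKB2, TNFAIP3, BIRC3 and MAP3K8, were also found in the table of the G398S comparison. NFKBIA, TNFAIP2, IKBKE, ICAM1 and SOD2 were found in the WT table only, and their values in the G398S clone were not analysed here.

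The cells were Huh7, a human hepatoma line, in which a construct for A1CF, an RNA-binding partner of the apolipoprotein B mRNA editing enzyme, could be switched on with doxycycline. The 4 groups were a WT A1CF clone without doxycycline, the same clone with doxycycline, a G398S A1CF clone without doxycycline and that clone with doxycycline, each with 3 libraries. The labels speak of 1 cell clone for each construct, and no group received doxycycline without a construct. Effects of the drug, the clone, the protein and its level therefore cannot be told apart. The deposited values are 1 FPKM per gene and group (fragments corrected for transcript length and library size), pooled over the 3 libraries by the authors, so no value per library could be shown and the overlap of libraries between groups is unknown.

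NF-kappaB is a family of transcription factor dimers that inhibitor proteins hold in the cytoplasm. Kinases activated by cytokine or microbial receptors mark the inhibitors for degradation, or trigger processing of the NFKB2 precursor p100 in the alternative route, and the released dimers bind kappaB sites in DNA. Many of the genes switched on in this way encode the pathway's own subunits and inhibitors, which gives feedback. In hepatocytes and hepatoma cells the pathway is known for driving acute-phase and chemokine genes and for protecting against cell death.

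Promoter sequences were looked up because several of these genes are textbook kappaB targets. RefSeq promoters (GRCh38.p14) were found for 9 of the 10 genes, all but RELB, with 16 annotated start sites in all. Within 250 bases before the start, the kappaB consensus, searched on both strands, matched 5 of the 9 genes and 8 of the 16 windows, against 11.8% of 27305 genes and 9.96% of 35116 windows over all RefSeq promoters. The AP-1 letters TGANTCA, searched for comparison, matched 1 of the 16 windows, against 6.57% of all windows. The 5 genes with a kappaB match were NFKBIA, TNFAIP3, BIRC3, NFKB2 and MAP3K8. Windows of neighbouring start sites share bases, and one match of MAP3K8 was counted in 2 windows. The stretches below show most of these matches in capitals, 5′ to 3′ on the gene's strand, with the inhibitor genes NFKBIA (chr14:35404750-35404850, minus strand) and TNFAIP3 (chr6:137867188-137867217, plus strand) first. They are followed by BIRC3 (chr11:102317265-102317378, plus strand), NFKB2 at start 2 (chr10:102394461-102394490 and chr10:102394490-102394519, plus strand) and at start 3 (chr10:102395674-102395703, plus strand), and MAP3K8 (chr10:30433982-30434011, plus strand). In the upstream NFKB2 stretch, 2 matches offset by 1 base are merged in the capitals. A further match of NFKB2, 176 bases before start 3, and one of MAP3K8, 207 bases before its start 3, were counted and are not printed.
NFKBIA: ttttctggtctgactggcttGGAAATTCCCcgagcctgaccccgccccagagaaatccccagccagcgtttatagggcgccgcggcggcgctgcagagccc
TNFAIP3: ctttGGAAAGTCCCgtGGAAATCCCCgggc
BIRC3: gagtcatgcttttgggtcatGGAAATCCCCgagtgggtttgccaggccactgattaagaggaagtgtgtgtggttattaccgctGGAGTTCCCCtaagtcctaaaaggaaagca
NFKB2, start 2, upstream match: gaaacgtcatGGGAATTCCCCcctccgggg
NFKB2, start 2, downstream match: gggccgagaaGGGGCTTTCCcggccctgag
NFKB2, start 3: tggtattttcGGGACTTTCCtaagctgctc
MAP3K8: ggggagacgcGGAATTTCCCagcgcggggg

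The match of NFKBIA began 81 bases before the start, those of TNFAIP3 67 and 55 bases before it, and those of BIRC3 199 and 135 bases before it. No match was found in the windows of ICAM1, IKBKE, TNFAIP2 and SOD2, which says only that these letters are not in these windows. The matches are a description of the sequence and do not show binding.

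**Figure D1:**
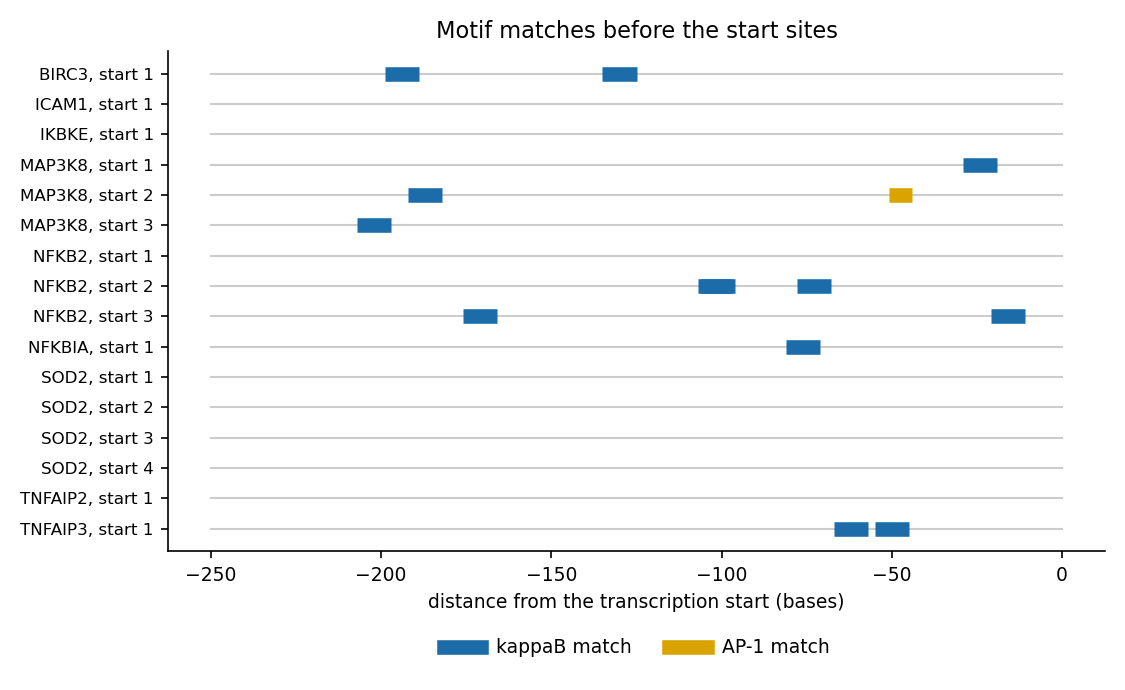
Positions of kappaB matches (blue) and of AP-1 matches (yellow) in the 250 bases before 16 RefSeq start sites of 9 genes. The horizontal axis gives the distance from the start in bases, and each grey line is 1 start site. Matches lie on 8 of the 16 lines, in BIRC3, MAP3K8, NFKB2, NFKBIA and TNFAIP3.

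With WT A1CF induced, all 10 genes were lower, by 1.63-fold for the adhesion molecule gene ICAM1 to 4.10-fold for the kinase gene IKBKE. The genes most reduced besides IKBKE were BIRC3, an inhibitor of apoptosis and ubiquitin ligase of TNF receptor complexes, and the subunit genes RELB and NFKB2. The authors called 1.14% of the 15109 genes they tested in the WT clone, a number worked out from p and q, and 60.6% of the 142 called genes analysed here were lower. The median log2 ratio of the 10 genes was -1.02, beside -0.66 for all genes of the table and -0.95 for those that fell. A ratio of at least 1 on the log2 scale in size was reached by 5 of the 10, and by 35.9% of the table. Since the genes were chosen with this comparison known, nothing is read from these counts. In a bulk sample, fewer cells expressing a gene and less RNA in each cell cannot be told apart.

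With G398S A1CF induced, the 5 genes in the table split, 3 lower and 2 higher. RELB, NFKB2 and BIRC3 fell, as in the WT clone, while TNFAIP3, a ubiquitin-editing inhibitor of the pathway, and MAP3K8, a kinase of the MAP kinase and NF-kappaB pathways, rose. The authors called 12.4% of the 17072 genes tested in this clone, and 53.7% of the 1863 called genes analysed here were lower. A log2 ratio of at least 1 in size was reached by BIRC3 alone among the 5, and by 12.6% of the table. The median absolute log2 ratio of the 5 was 0.77, beside 0.49 for the table.

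**Figure D2:**
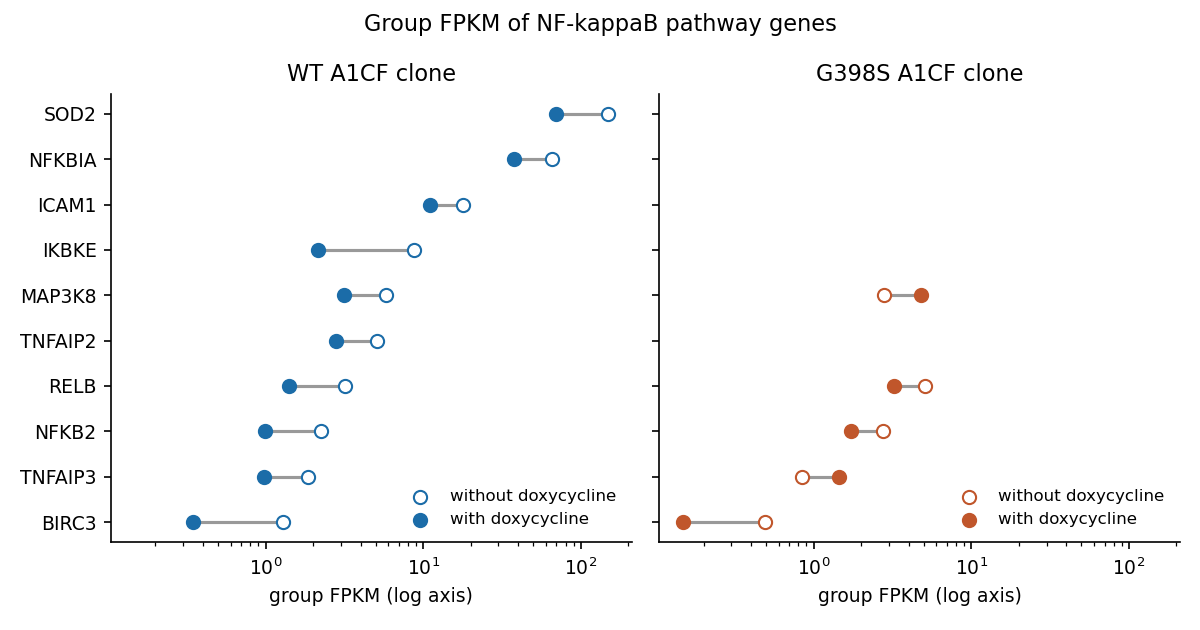
Group FPKM of the 10 genes on a log axis, in the WT clone (left) and the G398S clone (right). Open circles are the authors' pooled values without doxycycline and filled circles those with it, with no replicate error deposited. All 10 filled circles lie left of the open ones in the WT clone, whereas in the G398S clone those of TNFAIP3 and MAP3K8 lie to the right.

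RELB encodes the transcription-activating subunit of the alternative NF-kappaB dimer. Its FPKM was 3.18 without and 1.41 with doxycycline in the WT clone, and 5.11 without and 3.25 with doxycycline in the G398S clone. The level was lower with doxycycline in both clones. The log2 ratio was -1.17 (implied standard error 0.43) in the WT clone and -0.65 (0.24) in the G398S clone, where the implied standard error is the quotient of fold change (log2) and test statistic in the authors' deposited table. The q-values of the authors' deposited tables were 0.00699 for WT and 0.00104 for G398S. The test statistic was -2.71 in both clones and the authors' deposited p was 5e-05, smaller than a normal score of that size gives. The implied standard error is therefore not the spread behind the deposited p-values and q-values, and is given beside them only as a description.

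NFKB2 encodes p100, the precursor of p52, which is the usual partner of RELB. Its FPKM went from 2.24 to 0.996 in WT cells and from 2.76 to 1.71 in G398S cells. The log2 ratios were -1.17 (implied standard error 0.44) and -0.69 (0.42), nearly those of RELB in each clone. The G398S change had q = 0.0406 in the authors' deposited table, the closest of all to the threshold of 0.05 among these genes. The measured row also differed between clones. It spanned 9340 bases in the WT table (hg19 chr10:104152947-104162286), close to the RefSeq gene length of 8420 bases, but 38557 bases in the G398S table (hg19 chr10:104153867-104192423). PSD, FBXL15 and CUEDC2 follow NFKB2 in RefSeq gene order, and none of them had a row of its own in the tables analysed. Whether reads from them entered the G398S value was not tested.

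NFKBIA encodes IkappaB-alpha, the inhibitor that binds NF-kappaB dimers in the cytoplasm and is itself made in response to them. It fell from 65.9 to 37.8 FPKM in the WT clone (hg19 chr14:35870716-35873960), a log2 ratio of -0.80 (implied standard error 0.27), with q = 0.00699 in the authors' deposited table. Its promoter carries the single kappaB match printed above. After SOD2 it had the highest FPKM of the 10 genes.

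TNFAIP3 encodes A20, which shuts down signalling by editing ubiquitin chains on pathway adaptors. It fell from 1.86 to 0.976 FPKM in WT cells and rose from 0.843 to 1.44 FPKM in G398S cells. The log2 ratios were -0.93 (implied standard error 0.43) and 0.77 (0.39), a difference of 1.70 between clones. In the authors' deposited tables the q-value was 0.0214 for WT, the largest of the 10 there, and 0.00725 for G398S. After addition of 1 FPKM to each group value the log2 ratios were -0.53 and 0.40. The row spanned 59703 bases in the WT table (hg19 chr6:138144807-138204509), 3.52 times the RefSeq gene length of 16964 bases. The noncoding gene WAKMAR2 overlaps TNFAIP3 in RefSeq and had no row of its own in the tables analysed. Whether its reads entered these values was not tested.

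IKBKE encodes IKK-epsilon, an IkappaB kinase relative that acts in interferon and NF-kappaB signalling. It fell from 8.79 to 2.15 FPKM in the WT clone (hg19 chr1:206643586-206670302). The log2 ratio of -2.04 (implied standard error 0.35) was the largest of the 10 genes in size and ranked 10 among the 86 falls of the table. It shrank to -1.64 with 1 FPKM added, by more than the implied standard error. The q-value was 0.00699 in the authors' deposited table.

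MAP3K8, also known as TPL2, encodes a kinase that is held by p105, the NFKB1 precursor, and activates the ERK pathway when released. It fell from 5.76 to 3.13 FPKM in WT cells and rose from 2.79 to 4.82 FPKM in G398S cells. The log2 ratios were -0.88 (implied standard error 0.36) and 0.79 (0.24), a difference of 1.67 between clones. The q-values were 0.00699 and 0.00104 in the authors' deposited tables. Here 1 FPKM added to both groups left -0.71 and 0.62. The row of the WT table spanned 27813 bases (hg19 chr10:30722950-30750762), which is the RefSeq gene length.

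Of the 10 genes, 5 were in both tables, and among these BIRC3, which encodes cIAP2, had the closest log2 ratios in the 2 clones. Their difference was 0.14 on the deposited scale. Relative to the median log2 ratio of the 65 genes in both tables they were -1.23 and -2.12, and the ratios of RELB, at -0.53 and -1.03, were then closer. The FPKM of BIRC3 went from 1.28 to 0.348 in WT cells and from 0.494 to 0.148 in G398S cells, a fall of 3.68-fold and 3.34-fold. The log2 ratios were -1.88 (implied standard error 0.45) and -1.74 (0.45), and in the G398S table it ranked 6 among 1000 falls. These levels were low in all 4 groups. With 1 FPKM added the log2 ratios shrank to -0.76 and -0.38. The q-values were 0.00699 and 0.00104 in the authors' deposited tables, and the row (hg19 chr11:102188181-102210135) was the same in both.

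The 3 remaining genes are downstream targets and were found in the WT table only. SOD2, the mitochondrial superoxide dismutase that removes superoxide, had the highest level of the 10 genes and fell from 148.7 to 69.2 FPKM, a log2 ratio of -1.10 (implied standard error 0.27). ICAM1, the adhesion molecule that leukocytes bind, fell from 18.0 to 11.0 FPKM, a log2 ratio of -0.70 (0.29), the smallest of the 10 in size. TNFAIP2, first found as a TNF-induced gene, fell from 5.11 to 2.78 FPKM, a log2 ratio of -0.88 (0.36). Each had q = 0.00699 in the authors' deposited table, the value shared by all genes at the smallest p of 5e-05. The row of SOD2 covered 14205 bases (hg19 chr6:160100149-160114353), 0.15 of the RefSeq gene length of 93213 bases, and those of ICAM1 and TNFAIP2 15800 bases (hg19 chr19:10381517-10397316) and 13729 bases (hg19 chr14:103590207-103603935).

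**Figure D3:**
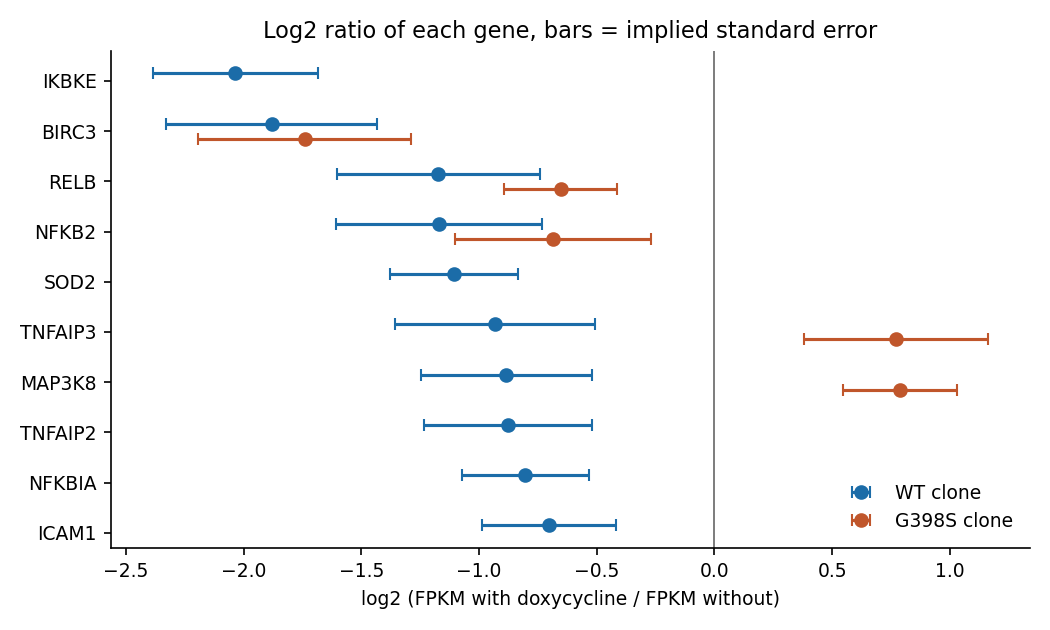
Log2 ratio of FPKM with over without doxycycline for each gene, in the WT clone (blue) and the G398S clone (orange). Bars are 1 implied standard error to each side, the quotient of the deposited log2 fold change and test statistic. All 10 WT ratios lie between -2.04 and -0.70, and the G398S ratios of TNFAIP3 and MAP3K8 lie above 0.

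By level in the uninduced WT clone, the order from high to low was SOD2, NFKBIA, ICAM1, IKBKE, MAP3K8, TNFAIP2, RELB, NFKB2, TNFAIP3 and BIRC3, on the FPKM scale, which is per transcript length. With no spread over libraries, neighbours in this order, such as MAP3K8 at 5.76 and TNFAIP2 at 5.11 FPKM, cannot be separated. With doxycycline IKBKE, at 2.15 FPKM, dropped below MAP3K8 and TNFAIP2, at 3.13 and 2.78 FPKM.

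The 2 tables were normalised separately, so levels across clones are set side by side only. Without doxycycline the WT clone had 2.21 times the FPKM of the G398S clone for TNFAIP3, 2.07 times for MAP3K8 and 2.59 times for BIRC3. For NFKB2 and RELB the G398S clone had the higher uninduced value, by 1.23-fold and 1.61-fold. The NFKB2 row spanned 9340 bases in the WT clone and 38557 bases in the G398S clone. Its levels in the 2 clones are thus not of the same stretch, with or without doxycycline. The median of the same WT to G398S ratio over the 65 genes in both tables was 1.56, and divided by it the ratios of TNFAIP3, MAP3K8, BIRC3, NFKB2 and RELB were 1.41, 1.32, 1.66, 0.52 and 0.40. With doxycycline the order of the clones was the other way round for TNFAIP3 and MAP3K8, which were 1.48-fold and 1.54-fold higher in the G398S clone. RELB and NFKB2 were then 2.30-fold and 1.72-fold higher in the G398S clone, and BIRC3 remained higher in the WT clone, by 2.35-fold. None of these differences between clones was tested.

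Of the 65 genes in both tables, 24 were lower in both clones, among them RELB, NFKB2 and BIRC3, and 15 were lower in the WT clone and higher in the G398S clone, among them TNFAIP3 and MAP3K8. A further 22 were higher in both and 4 were higher in the WT clone and lower in the G398S clone. Likeness was measured as the distance between genes in the plane of the 2 log2 ratios, over the 2 comparisons and among genes that reached 1 FPKM in each clone. BIRC3, below 1 FPKM in both G398S groups, was set against these genes but was not a candidate itself. The gene nearest to RELB was NFKB2, at a distance of 0.033, and the next was LGALS1, which encodes galectin-1, at 0.158. The NFKB2 ratios come from rows of unlike span, 9340 bases in the WT clone and 38557 bases in the G398S clone. TNFAIP3 and MAP3K8 were each other's nearest gene, at 0.051, followed by GXYLT2, a xylosyltransferase gene, at 0.241 and 0.247. BIRC3 was nearest to UBD, a ubiquitin-like modifier gene, at 0.343, with SNORD7, a small nucleolar RNA gene, next at 0.634. The distances between RELB and NFKB2 and between TNFAIP3 and MAP3K8 are smaller than the implied standard errors of the ratios, which were 0.24 to 0.44, so the order of nearest genes is a description only.

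**Figure D4:**
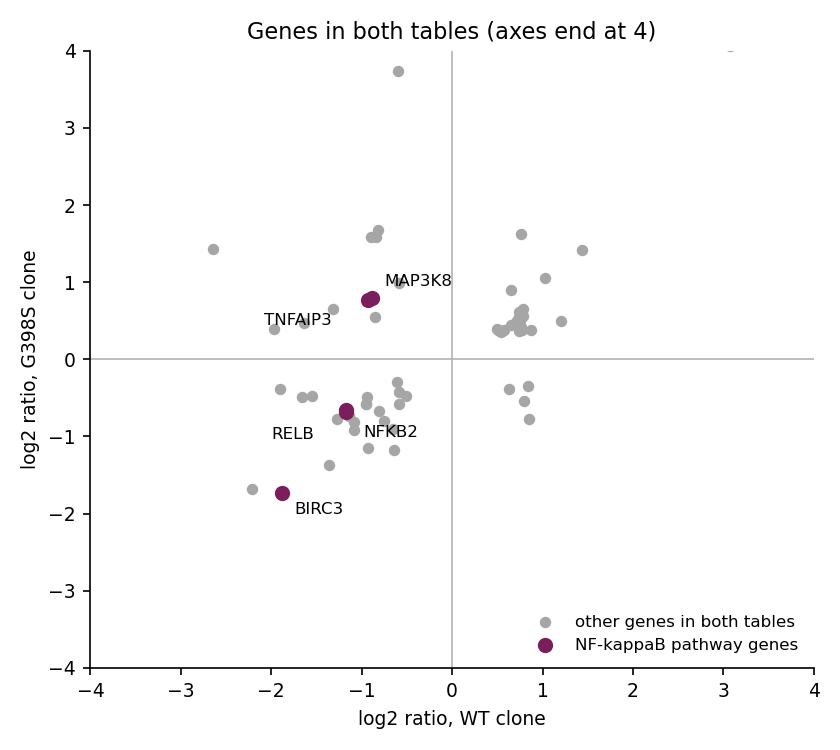
Log2 ratio of FPKM with over without doxycycline in the WT clone (horizontal) and in the G398S clone (vertical) for 61 of the 65 genes in both tables, with 4 genes beyond the axes, which end at 4. Purple points are the NF-kappaB pathway genes. RELB and NFKB2 overlie each other at lower left, TNFAIP3 and MAP3K8 at upper left, and BIRC3 lies further down.

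Other genes of the pathway were taken from 8 lists with 96 genes that hold none of the 10. In the WT clone 12 of the 96 (12.5%, beside 1.14% of all genes tested) were in the table and all 12 fell, with a median log2 ratio of -1.60. In the G398S clone 18 (18.8%, beside 12.4%) were in the table, 10 lower and 8 higher, with a median of -0.36. Of all called genes analysed, 60.6% were lower in the WT clone and 53.7% in the G398S clone. The shares of 1.14% and 12.4% count all 172 and 2114 called genes, while the tables held 142 and 1863 of them. How many of the 96 genes were tested is not known. The lists were drawn up with earlier results known, so these counts are a description. For the remaining genes of the lists no value was analysed here. Of the 3 other subunit genes, NFKB1, which encodes p105 and p50, fell from 42.4 to 31.6 FPKM in the G398S clone. The inhibitor gene NFKBIE, which encodes IkappaB-epsilon, fell in both clones, from 6.17 to 3.52 FPKM and from 6.01 to 3.79 FPKM. A row that names NFKBIZ together with NXPE3 fell from 32.7 to 16.0 FPKM in WT cells and was not counted. Nor were 2 rows of the G398S table, one that names SAA2 with SAA4, which rose from 14.5 to 66.5 FPKM, and one that names TNFRSF12A with THOC6, which fell from 168.8 to 115.3 FPKM.

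Upstream of the subunits, no gene of the kinase, adaptor, receptor and ligand lists was in the WT table. In the G398S table TAB2, an adaptor of the kinase TAK1, rose 1.26-fold and the interleukin-1 receptor gene IL1R1 rose 1.39-fold. The death ligand gene TNFSF10 rose from 0.532 to 1.05 FPKM. The ligand gene LTB and, from the target list, PLAU, both below 1 FPKM in each group, were lower. Among other target genes the acute-phase gene SAA1 fell most in the WT clone, from 7.42 to 0.803 FPKM, a fall of 9.24-fold. The implied standard error of its log2 ratio was 0.998. With 1 FPKM added that ratio was -2.22, beside -2.13 for UBD in the same clone. UBD fell 4.65-fold in the WT clone and 3.19-fold in the G398S clone, and the proteoglycan gene SDC4 fell 1.52-fold and 1.23-fold. The complement gene C3 was also lower in the WT clone, and in the G398S clone IER3 was lower and IRF1, an interferon-response factor, higher. Of the 12 genes in the chemokine list, 7 fell in the WT clone, namely CCL20, CX3CL1, CXCL1, CXCL5, CXCL6, CXCL8 and CXCL10. In the G398S clone CX3CL1, CXCL6 and CXCL8 fell and CCL20, CXCL1, CXCL2 and CXCL5 rose. CCL20 went from 367 to 147.7 FPKM in WT cells and from 88.8 to 139 FPKM in G398S cells, the same opposite directions as TNFAIP3 and MAP3K8.

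**Figure D5:**
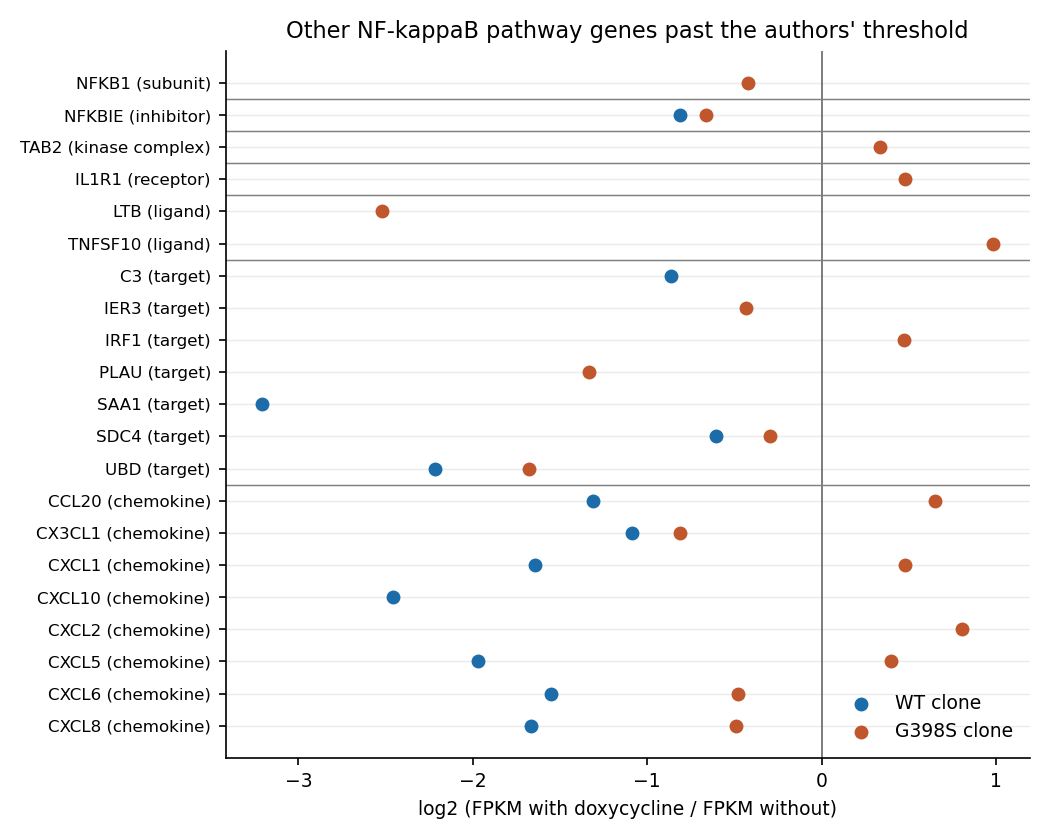
Log2 ratio of FPKM with over without doxycycline for the genes of the pathway lists in the tables, 12 in the WT clone (blue) and 18 in the G398S clone (orange). Rows are genes, grouped by role. All 12 blue points lie below 0, and 10 orange points lie below and 8 above it.

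A1CF itself rose from 19.5 to 33.2 FPKM (1.70-fold) in WT cells and from 26.3 to 80.9 FPKM (3.08-fold) in G398S cells. The size of this rise thus differed between the clones, and its part in the results above was not tested. Cell type markers moved as well, and their part in the results above was not tested. Of 6 immune cell markers, LYZ, which encodes lysozyme, was the 1 gene in either table and fell in both, from 83.9 to 39.4 FPKM and from 7.29 to 3.87 FPKM. Of 6 erythroid markers, 3 were in the WT table. HBG1 and HBG2 fell there, from 23802 to 186 FPKM and from 13402 to 141 FPKM, while HBA2 rose from 1.15 to 9.67 FPKM. In G398S cells the 4 erythroid markers in the table all rose, from 183 to 4535 FPKM in sum, although the library kit was designed to remove globin RNA. No hepatocyte marker of 9 was in the WT table, and APOA1 and TF, at 185 and 227 FPKM in uninduced G398S cells, were lower with doxycycline. Of 4 cholangiocyte markers, KRT19 and SOX9 fell in G398S cells, from 192.9 to 129.6 FPKM and from 1.24 to 0.782 FPKM. Of 5 fibroblast and endothelial markers, 1 rose there, below 1 FPKM with and without doxycycline. No marker of these last lists was in the WT table.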

How the data were processed

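RNA-seq of total RNA from Huh7 clones was analysed from 2 tables deposited by the authors, 1 per clone. Per the submitters' processing notes, the tools were bcl2fastq 2.9.1, STAR 2.5.0b, Cufflinks 2.2.1 and Cuffdiff, with the hg19 build; settings and use of strand in counting are not given. Per the file headers, each row holds the authors' FPKM for 2 groups, a log2 fold change, a test statistic (a score) and deposited p-values and q-values. Only genes marked significant are listed, 142 for WT and 1863 for G398S, while p and q imply 172 and 2114 called genes, so absence of a gene says nothing about it. The numbers tested are the smallest that make every rank implied by p and q whole (the next are 30218 and 34144), a step tested on simulated data. Depth is unknown. Separate cultures behind the 3 libraries of a group are not stated, and p-values then measure only the spread between these libraries, which may be technical.

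Ratios were computed from FPKM with no pseudocount in Python 3.11.15 with pandas 2.3.3. Row starts were taken as counted from 0, since end minus start equalled the RefSeq gene length in 47 G398S rows against 15 under the other reading, and 1 was added. Genes, lists and motifs were chosen with earlier results of these data known. Besides the 10 genes, list genes that reached 1 FPKM in a group were named, up to 3 per list with values, and the 2 nearest genes of each gene in both tables. NFKBIZ, TNFRSF12A, SAA2, LTB and PLAU were named after their values were seen. RefSeq sequences (GRCh38.p14) were matched by symbol, and no coordinate was converted between builds. Stretches that would overlap an annotated exon were shortened to 30 bases around the match, which did not always take them out of exons. All 30 bases of the printed TNFAIP3, MAP3K8 and NFKB2 start 2 stretches lay in annotated exons. At NFKB2 start 3, 11 of the 30 printed bases did, and none did in the NFKBIA and BIRC3 stretches.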

Additional observations from a re-analysis of the deposited data

How the results depend on the processing

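Adding 1 FPKM or 0.1 FPKM to both groups can shrink a log2 ratio but cannot change its direction. All 15 log2 ratios of the 10 genes kept their direction relative to the median log2 ratio of the 65 genes in both tables. That median was -0.65 in WT and 0.38 in G398S, so the 3 falls in the G398S clone could not change direction. By this step 12 of the 15 ratios moved by at least their implied standard error, and 3 moved by less. Relative to that median the median of the 10 genes in the WT clone was -0.37 instead of -1.02, that of the 5 in the G398S clone -1.03 instead of -0.65, and in the WT clone ICAM1 and NFKBIA were at -0.06 and -0.16. These 65 genes are all called ones, so that median is no neutral scale. On it RELB was at -0.53 in WT and -1.03 in G398S and NFKB2 at -0.52 and -1.06, the reverse of the order of size on the deposited scale, and MAP3K8 in G398S was at 0.41 instead of 0.79. With 1 FPKM added, NFKB2 in WT moved to -0.70 and IKBKE in WT to -1.64, and BIRC3 in G398S was at -1.26 with 0.1 FPKM added. At a q-value under 0.01 TNFAIP3 dropped out of the WT count and NFKB2 out of the G398S count, and when 1 FPKM had to be reached in a group BIRC3 dropped out of the G398S count. At an absolute log2 ratio of at least 1 the count of lower genes was 5 in WT and 1 in G398S, and of higher genes 0 in G398S, since fewer genes pass that size. Counting rows with several symbols gave 13 list genes lower in WT, and 11 lower and 9 higher in G398S. The count of genes with a kappaB match was 5 in the whole promoter window too. No paired analysis was possible because the tables hold 1 pooled value per group, and for the same reason no library could be left out. Unknown depth limits the genes under 1 FPKM, BIRC3 in the G398S clone above all.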

Other observations

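The kappaB consensus was also counted in the promoters of genes outside the 10. Genes of the pathway lists were not taken out of these sets. Of the other genes that fell in the WT clone, 47 had a RefSeq promoter and 17 of them (36.2%) held a match within 250 bases before a start. Of the genes that rose in the WT clone, 7 of 41 (17.1%) did. In the G398S clone the shares were 110 of 695 genes that fell (15.8%) and 105 of 633 that rose (16.6%), beside 11.8% of all RefSeq genes. A gene with more start sites has more windows in which to match. Per window the shares were 24.3% for genes that fell and 12.3% for genes that rose in the WT clone. They were 11.8% and 11.7% in the G398S clone, beside 9.96% of all windows. The AP-1 letters were found in 9 of the 47 genes that fell in the WT clone (19.1%) and in 2 of the 41 that rose (4.88%), and in 6.04% and 9.32% of those that fell and rose in the G398S clone, beside 8.06% of all RefSeq genes.

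Genes in both tables also differed in their uninduced levels. Of the 15 genes that were lower in the WT clone and higher in the G398S clone, 14 had the higher uninduced FPKM in the WT clone, with a median WT to G398S ratio of 7.19, which is above the 2.21 of TNFAIP3 and the 2.07 of MAP3K8. The median was 1.63 over the 24 genes lower in both clones and 1.07 over the 22 higher in both. The uninduced value enters both the ratio between clones and the change with doxycycline, so these figures are a description and were not tested.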
